A study of Caenorhabditis elegans with 8 samples.

Results

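Whole wild-type (N2) Caenorhabditis elegans hermaphrodites labelled 5 days of age were compared with those labelled 1 day, all from the water arm of an arsenite experiment. The comparison rests on 4 of the 8 messenger RNA libraries of the series, chosen by their source labels: 2 water libraries at 1 day (numbered 31 and 33) and 2 at 5 days (numbered 23 and 25). The other 4 libraries came from N2 hermaphrodites of the same ages kept in arsenite. They helped to filter genes, to scale libraries and to estimate the spread between replicates, and gave the same age contrast in other libraries. The 1-day descriptions also state 24 h. The labels give 100 nM for water and arsenite alike and do not say whether age was counted from hatching or from adulthood, how the worms were fed or kept from their progeny, or whether replicates were separate cultures. P-values therefore measure the spread between these libraries, which may be technical. Libraries of 1 day and 5 days carry separate runs of numbers, so a library batch and age cannot be told apart.

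Hermaphrodites of this species make a limited stock of sperm first and then switch to oocytes for the rest of life, so self-fertilized egg production ends when the sperm are used up. The adult soma no longer divides, and its muscle, intestine, epidermis and neurons are known to age at different rates while the intestine goes on making yolk. Whole-worm RNA pools all tissues: fewer cells of a type, less RNA per cell and a larger share of RNA from another tissue cannot be told apart in these data.

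Messages of adult hermaphrodites were present at both ages. Levels are given as TMM-normalized CPM, the reads of a gene scaled to a common library size. The adult cuticle collagen col-19 stood at 461 and 508 CPM at 1 day and 21.6 and 19.04 CPM at 5 days. The eggshell proteoglycan gene cpg-2 stood at 1458 and 1442 CPM at 1 day and 2032 and 2056 CPM at 5 days. The 4 libraries held 22800281 to 27317490 counts on 18771 to 18924 genes, with a common biological coefficient of variation of 5.003% between the 1-day and 7.922% between the 5-day water libraries. Nuclear ribosomal RNA, which selection for messenger RNA should remove, took 3.02% and 2.18% of all counts at 1 day and 1.03% and 1.2% at 5 days.

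Most genes changed, and most of them by less than 2-fold. Of 14449 genes tested, 8685 (60.1%) passed the edgeR quasi-likelihood test at an adjusted p under 0.05 and are said below to have risen or fallen. A share of 30.1% rose and 30% fell, and the median log2 fold change of all genes was 0.01. These shares are the background for the gene lists below, whose counts cover only members with enough reads to be tested. A member that passed that filter through 1 age alone could hardly fail to differ. Some genes belong to more than 1 list, so the counts of such lists are not separate findings. Examples are mup-4 (sarcomere and epidermal lists), vha-6 (brush border and proton pump lists) and pha-4 (intestinal factor, embryonic and pharyngeal lists). The filament and pharyngeal lists share several myosin and troponin genes. The median size of the log2 change among called genes was 0.75, and 3418 called genes changed by less than 1.5-fold. More than 2-fold changes were called for 10.7% of genes upward and 12.2% downward. Against a fold of 1.5 the edgeR test called 3363 genes, and many lists of small changes described below kept few calls there. Among them DNA replication and repair kept 3 rises and 0 falls, splicing factors 4 and 1, autophagy 1 and 1, translation factors 0 and 0, oocyte genes 1 and 0, the gonadal sheath 1 and 1. Aminoacyl-tRNA synthetases, dosage compensation and the p38 and TGF-beta list kept 0 and 0, the nucleolus list 1 and 0, and the proteasome and endoplasmic reticulum lists 0 and 1 each. At the other end, 185 genes rose and 171 fell by more than 10-fold. For 4295 genes the 95% interval of the log2 fold change lay within 0.5 of 0, and 1655 of these were still called. The libraries of both ages did not overlap for 79.0% of all genes, so a lack of overlap by itself says little of any 1 gene.

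**Figure D1:**
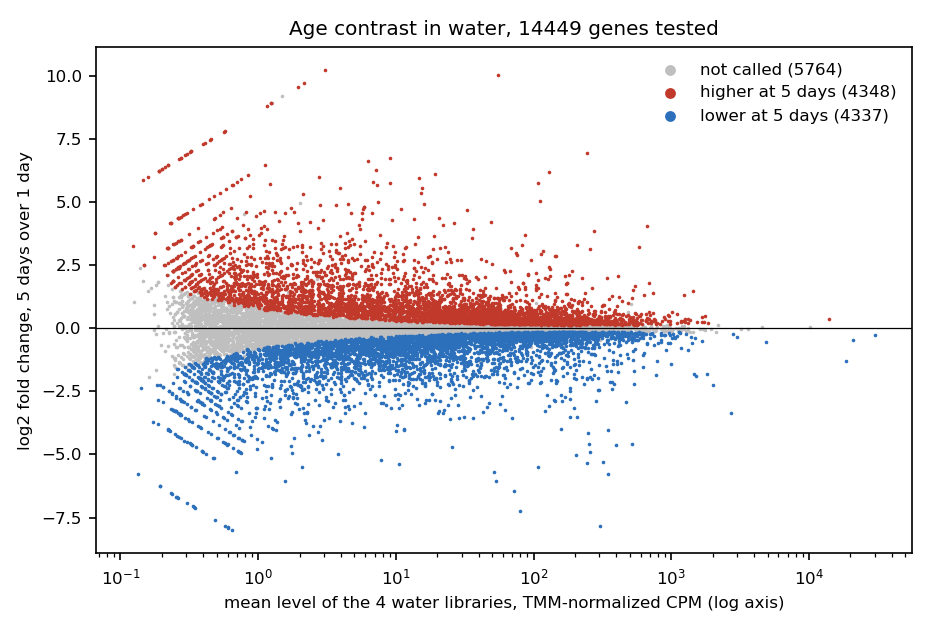
Each point is 1 of 14449 genes, with its mean level in the 4 water libraries on a logarithmic axis (TMM-normalized CPM) against its fitted log2 fold change. The 4348 genes that rose and the 4337 that fell spread over the whole range of levels, and the widest fitted changes at the left rest on few reads.

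Gene length moved with age. Among 13793 protein-coding genes, those with up to 300 bases of merged exons had a median log2 fold change of 1.86, those of 301 to 500 bases 0.93, and those over 5000 bases -0.25. In the shortest class 73.3% of 105 genes rose and 8.6% fell, and in the longest class 9.8% of 378 rose and 55.3% fell. Replicate libraries differed with length as well, though less: between the 1-day water libraries the shortest class differed by a median of 0.21 and the longest by -0.12 on the log2 scale (replicate 2 minus replicate 1). At 5 days these values were -0.08 and 0.06. The part of library preparation in this trend was not tested. The fit was therefore repeated with the trend of each library with gene length removed, an alternative chosen after seeing the data, which takes out a length trend of any origin. It called 8460 genes, 3738 higher and 4722 lower. Of the 8685 genes, 7489 were also called in that fit. Lists described below whose count of rises or falls moved by over 1.5 times in it are given with both counts.

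**Figure D2:**
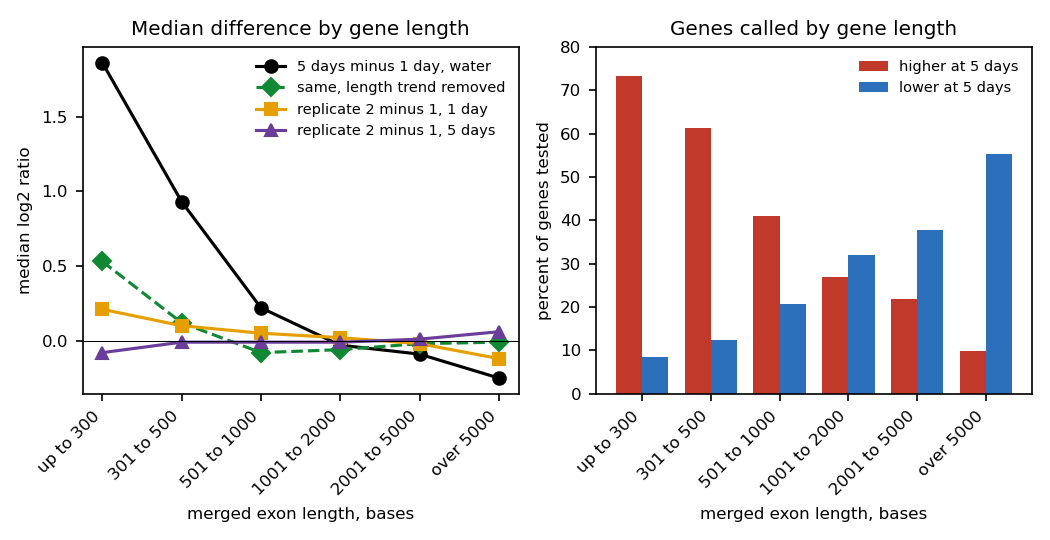
Left, the median log2 ratio of protein-coding genes in 6 classes of merged exon length for age in water, for age with the length trend removed, and between the replicates of each age. Right, the percent of genes in each class that rose or fell at 5 days. The shortest genes were higher at 5 days by a median of 1.86 and the longest lower by a median of 0.25 on the log2 scale.

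Messages for the contractile apparatus of muscle fell nearly throughout. Of 28 genes for thick and thin filaments 22 fell and 4 rose, with a median log2 fold change of -1.12; with the length trend removed 22 fell and 1 rose. The paramyosin gene unc-15 stood at 826 and 808 CPM at 1 day and 237 and 271 CPM at 5 days. The troponin I gene unc-27 stood at 348 and 368 CPM at 1 day and 97.2 and 88.5 CPM at 5 days. For both genes the 5-day libraries lay at well under the 1-day level, with log2 fold changes of -1.69 (SE 0.07) and -1.95 (SE 0.07). The myosin heavy chain unc-54 and the troponin T gene tnt-2 had -1.88 (SE 0.07) and -2.46 (SE 0.07). Of 28 genes for sarcomere assembly and attachment, 25 fell and 0 rose (median -0.82). They include the integrin gene pat-2 at -1.75 (SE 0.07), the dense-body alpha-actinin gene atn-1 at -1.56 (SE 0.07) and the kindlin gene unc-112 at -1.205 (SE 0.07). The gene dim-1, which encodes an immunoglobulin-domain protein of the muscle attachment, had -1.62 (SE 0.07). Adjusted p-values of the called genes reached at most 2.32e-13 in the edgeR quasi-likelihood test.

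The basement membrane, the sheet of laminin and collagen IV that covers muscle, gonad, intestine and epidermis, showed the same direction. Of 21 genes 20 fell and 0 rose, 17 of them by more than 2-fold, with a median of -1.44 (-1.28 with the length trend removed, where 19 fell and 1 rose). All 4 subunits of laminin were among them. The alpha subunit gene lam-3 stood at 223 and 212 CPM at 1 day and 34.2 and 35.2 CPM at 5 days. The second alpha subunit gene, epi-1 (WBGene00001328, WBcel235 chromosome IV, 10666823 to 10679291) stood at 529 and 485 CPM at 1 day and 92.7 and 95.9 CPM at 5 days. Both 5-day libraries were far below both 1-day libraries, and the log2 fold changes were -2.65 (SE 0.07) and -2.43 (SE 0.06). The beta subunit gene lam-1 and the gamma subunit gene lam-2 fell together, by 1.98 and 1.98 on the log2 scale. These are long genes, the class that was lower at 5 days as a whole; with the length trend removed lam-3 had -2.33, epi-1 -2.06, lam-1 -1.78 and lam-2 -1.77. Some counts moved by over 1.5 times without a single library: the basement membrane list gave 1 rise and 19 falls without 1-day replicate 1.

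Cuticle collagens parted into a falling and a rising set. Of 114 genes with a col symbol 51 fell and 41 rose, 47 and 36 of them by more than 2-fold. The falling set carried most of the reads at 1 day: all col genes together took 1.01% and 1.11% of all counts at 1 day and 0.131% and 0.139% at 5 days. The gene col-8 stood at 472 and 516 CPM at 1 day and 16.9 and 16.3 CPM at 5 days. The gene col-119 stood at 634 and 668 CPM at 1 day and 42.0 and 37.9 CPM at 5 days. Both groups of libraries were far apart for these genes, with log2 fold changes of -4.89 (SE 0.08) and -4.03 (SE 0.08), and col-19 fell too (-4.57, SE 0.09). Among 20 collagens named for a mutant body shape or blister, 10 rose and 8 fell. The gene sqt-1 stood at 0.719 and 0.972 CPM at 1 day and 5.84 and 9.69 CPM at 5 days and dpy-8 at 1.35 and 1.05 CPM at 1 day and 4.83 and 7.80 CPM at 5 days. The genes dpy-10 and dpy-2, which with dpy-8 make the annular furrows, fell, with -1.19 (SE 0.10) and -1.14 (SE 0.12), against 3.18 (SE 0.28) for sqt-1 and 2.399 (SE 0.25) for dpy-8.

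Genes of moulting and the apical matrix fell in 15 of 21 cases and rose in 4 (median -0.72). The zona pellucida proteins noah-1 and noah-2 had log2 fold changes of -1.66 (SE 0.08) and -1.52 (SE 0.10), the fibrillin-like gene fbn-1 -1.28 (SE 0.08), and nhr-23, the nuclear receptor that drives the moulting programme in larvae, -0.72 (SE 0.07). Epidermal genes fell in 16 of 25 and rose in 2, among them mup-4, a hemidesmosome protein that links muscle pull to the cuticle, at -1.90 (SE 0.08), and the intermediate filament genes ifa-3 and ifb-1 at -2.62 (SE 0.14) and -1.18 (SE 0.07). The phenylalanine hydroxylase gene pah-1, used in making the cuticle, stood at 98.3 and 98.1 CPM at 1 day and 40.5 and 37.3 CPM at 5 days. Hedgehog-related and patched-related genes did not share 1 direction: 23 of 62 rose and 17 fell (37.1% and 27.4%, against 30.1% and 30% of all genes). The gene grd-3 had -3.37 (SE 0.14) and ptr-22 1.59 (SE 0.12). Counts here that depended on 1 library were as follows: the moulting and apical matrix list gave 2 rises and 14 falls without 1-day replicate 1 or 1-day replicate 2, 2 rises and 16 falls without 5-day replicate 2. The epidermal list gave 0 rises and 16 falls without 1-day replicate 1 or 5-day replicate 1. The edgeR quasi-likelihood test gave each gene named as called here, over all libraries, an adjusted p of 1.4e-08 or less.

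Many genes of the intestine fell. Of 18 genes of its brush border and lumen 15 fell and 1 rose (median -0.99), and the riser was the metallothionein gene mtl-2. The intestinal intermediate filament gene ifc-2 stood at 141 and 141 CPM at 1 day and 61.98 and 72.8 CPM at 5 days. The vacuolar proton pump, which acidifies lysosomes and the gut lumen, lost message in 19 of 21 subunit genes, and 0 rose. The a-subunit gene vha-5 (WBGene00006914, WBcel235 chromosome IV, 8303968 to 8307371) stood at 241 and 236 CPM at 1 day and 55.2 and 50.9 CPM at 5 days. The other a-subunit gene vha-6, the catalytic-sector gene vha-12 and the C-subunit gene vha-11 followed, with log2 fold changes of -2.03 (SE 0.06), -1.19 (SE 0.06) and -1.399 (SE 0.06), against -2.17 (SE 0.07) for vha-5. The gene vha-6 belongs to the intestine and vha-5 to the epidermis and excretory canal. Aspartic and cathepsin proteases of lysosomes and gut fell in 21 of 29 and rose in 6. The aspartic protease asp-2 stood at 858 and 919 CPM at 1 day and 191 and 190.0 CPM at 5 days and the cathepsin B-like protease cpr-9 at 577 and 671 CPM at 1 day and 119 and 119 CPM at 5 days. Among the risers was the cathepsin B-like gene cpr-3 (2.02, SE 0.09). For the called genes of this group the edgeR quasi-likelihood test gave adjusted p-values of at most 7.14e-12.

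Yolk protein genes differed from each other. The 6 vitellogenin genes took 7.87% and 7.78% of all counts at 1 day and 6.23% and 6.68% at 5 days. The gene vit-1 (WBGene00006925, WBcel235 chromosome X, 7727889 to 7733168) stood at 4956 and 4945 CPM at 1 day and 484 and 482 CPM at 5 days, and vit-3 at 3344 and 3337 CPM at 1 day and 804 and 608 CPM at 5 days. The gene vit-5 stood at 12188 and 12106 CPM at 1 day and 16545 and 15014 CPM at 5 days. The 5-day libraries were thus lower for vit-1 and vit-3 and higher for vit-5, with log2 fold changes of -3.36 (SE 0.07), -2.24 (SE 0.21) and 0.38 (SE 0.08). The most abundantly read members, vit-2 and vit-6, had -0.45 (SE 0.08) and -0.27 (SE 0.08); with the length trend removed vit-6 had -0.10 and was not called, nor was it without 5-day replicate 1 (-0.16). The genes vit-3, vit-4 and vit-5 are near-identical copies, so their split of reads is uncertain. Of 11 genes for yolk uptake, lipid loading and vitellogenin control, 7 fell and 1 rose (2 up and 4 down with the length trend removed). The microsomal triglyceride transfer protein gene dsc-4, needed for lipoprotein assembly, had -0.85 (SE 0.08).

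Of 24 transcription factors of the intestine and of fat and stress control 8 rose and 8 fell (33.3% and 33.3%), shares near those of all genes, and 5 rose without 1-day replicate 2. The GATA factor elt-2, which directs intestinal genes throughout life, stood at 15.2 and 15.3 CPM at 1 day and 9.50 and 12.4 CPM at 5 days, a log2 fold change of -0.48 (SE 0.13) that was no longer called without 5-day replicate 1 (-0.30). The epidermal GATA factor elt-3 (WBGene00001251, WBcel235 chromosome X, 13934874 to 13941216) stood at 22.96 and 24.4 CPM at 1 day and 7.79 and 9.73 CPM at 5 days and fell further (-1.43, SE 0.12). The GATA factor elt-6, a repressor of elt-3, stood at 5.96 and 6.39 CPM at 1 day and 6.25 and 8.06 CPM at 5 days and was not called (0.21, SE 0.16). The autophagy and lysosome regulator hlh-30 stood at 60.6 and 51.3 CPM at 1 day and 83.4 and 95.1 CPM at 5 days, the SREBP homologue sbp-1 at 38.6 and 33.6 CPM at 1 day and 61.0 and 67.5 CPM at 5 days, and pqm-1, a partner of insulin signalling, at 15.6 and 17.8 CPM at 1 day and 28.01 and 27.7 CPM at 5 days. All 3 were higher in both 5-day libraries, with log2 fold changes of 0.68 (SE 0.09), 0.83 (SE 0.08) and 0.74 (SE 0.10). The bZIP gene cebp-1 had 2.10 (SE 0.14) and the ETS gene ets-4 -0.89 (SE 0.10). For nhr-49 and nhr-80, regulators of fatty acid metabolism, the values were 0.14 (SE 0.06) and 0.09 (SE 0.13); nhr-80 was not called, and the call of nhr-49 was lost in most alternative fits, DESeq2 and limma voom included. Adjusted p-values of the called genes reached at most 0.0485 in the edgeR quasi-likelihood test.

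Autophagy genes rose in 14 of 28 and fell in 5. The ubiquitin-like lgg-1, which coats autophagosomes, stood at 203 and 218 CPM at 1 day and 358 and 316 CPM at 5 days. The cargo receptor sqst-1 stood at 68.4 and 71.2 CPM at 1 day and 118 and 123 CPM at 5 days. Their log2 fold changes were 0.68 (SE 0.07) and 0.79 (SE 0.06), and 0.35 and 0.83 with the length trend removed. The gene epg-2, needed for the clearance of certain aggregates in embryos, fell (-1.25, SE 0.06). Among lipases, lipl-1, a lysosomal lipase induced by fasting, stood at 6.85 and 6.02 CPM at 1 day and 38.2 and 41.8 CPM at 5 days. In the making of polyunsaturated fat, the desaturase genes fat-2 and fat-3 rose, fat-2 with 305 and 314 CPM at 1 day and 1067 and 1062 CPM at 5 days (1.78, SE 0.07) and fat-3 with 1.04 (SE 0.06). The stearoyl-CoA desaturase gene fat-7 and the elongase gene elo-5 fell (-1.54, SE 0.09 and -1.14, SE 0.08). Over the 19 desaturase and elongase genes 5 rose and 10 fell.

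Fatty acid oxidation lost message in 35 of 62 genes and gained it in 10. The acyl-CoA dehydrogenase acdh-1, of the propionate shunt, stood at 1176 and 1236 CPM at 1 day and 339.6 and 327 CPM at 5 days. The peroxisomal acyl-CoA oxidase acox-1.5 stood at 151 and 153 CPM at 1 day and 32.8 and 35.3 CPM at 5 days. Both fell in both libraries (-1.85, SE 0.07 and -2.15, SE 0.07). Glycolysis and gluconeogenesis fell in 16 of 24 and rose in 2. Lactate dehydrogenase ldh-1 had -1.17 (SE 0.07) and the pyruvate kinase gene pyk-2 -0.88 (SE 0.08). The glyceraldehyde-3-phosphate dehydrogenase genes gpd-2 and gpd-3 had -1.30 (SE 0.07) and -1.33 (SE 0.06), but they are near-identical copies whose reads may be shared. The TCA and glyoxylate cycle fell in 17 of 29 and rose in 3, with the cytosolic isocitrate dehydrogenase gene idh-1 at -0.63 (SE 0.06). With single libraries left out, counts moved by over 1.5 times as follows: the TCA and glyoxylate cycle gave 1 rise and 17 falls without 1-day replicate 1. The edgeR quasi-likelihood test gave each gene named as called here, over all libraries, an adjusted p of 2.34e-09 or less.

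For the short-gene complexes of respiration and translation the count of rises and falls turned with gene length. Nuclear-encoded respiratory chain genes rose in 24 of 61 and fell in 17; with the length trend removed 8 rose and 35 fell. Mitochondrial ribosomal proteins gave 23 higher and 13 lower of 65, and 8 and 23 with the trend removed. Cytosolic ribosomal proteins gave 44 higher and 9 lower of 81 (median 0.23), and 18 and 44 with the trend removed (median -0.23). Leaving out 1 library moved some counts by over 1.5 times: mitochondrial ribosomal proteins gave 22 rises and 7 falls without 1-day replicate 2. Cytosolic ribosomal proteins gave 45 rises and 5 falls without 5-day replicate 1. Short genes were among those of this list that rose most: rpl-29, of 240 exon bases, stood at 38.9 and 35.5 CPM at 1 day and 179 and 165 CPM at 5 days, and rps-28, of 252 bases, at 18.9 and 21.3 CPM at 1 day and 103 and 99.0 CPM at 5 days. With the trend removed their log2 fold changes went from 2.21 to 0.70 and from 2.32 to 0.88. For the 12 mitochondrial DNA-encoded subunits the counts were unstable: 1 rise and 3 falls, 0 and 4 with the trend removed, and 0 to 4 rises and 2 to 6 falls with single libraries left out, any of the 8 of which moved the count of rises. In this group COX1, a subunit of cytochrome c oxidase, stood at 6264 and 5396 CPM at 1 day and 4096 and 3827 CPM at 5 days (-0.56, SE 0.08).

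Reads of major sperm protein genes, which build the crawling machinery of sperm, were few at 1 day and fewer at 5 days. Of 31 such genes 21 passed the filter on low counts, none of them with more than 5 reads in a 5-day water library, so they passed through the 1-day libraries and had to differ; their count of calls is not given as support. Their summed reads were 518 and 711 in the 1-day libraries and 35 and 26 in the 5-day libraries, a ratio of 1 day to 5 days of 18.9 (95% interval 14.6 to 24.9, exact, counting error only). Because msp sequences are nearly the same across copies, only this sum is given. Of 62 other sperm genes 34 passed the filter, of which 16 fell, 15 of them by more than 2-fold, and 3 rose (median -0.98). How many of these passed through the 1-day libraries alone was not counted, so these calls are not given as support either. Their summed reads were 5131 and 6018 at 1 day and 4895 and 4581 at 5 days, a ratio of 1.1 (95% interval 1.07 to 1.13). Oocyte maturation and maternal RNA-binding genes rose in 12 of 25 and fell in 2 (median 0.15). The difference between the sperm and oocyte lists was not tested. The germline repressor of somatic transcription pie-1 (WBGene00004027, WBcel235 chromosome III, 12426893 to 12429195) stood at 91.3 and 101 CPM at 1 day and 169 and 181 CPM at 5 days, and the RNA-binding gene mex-1 at 309 and 316 CPM at 1 day and 457 and 482 CPM at 5 days. Both 5-day libraries were higher, by 0.86 and 0.59 on the log2 scale. Eggshell and egg activation genes rose in 9 of 21 and fell in 4 (10 up and 2 down with the length trend removed); the vitelline-layer genes perm-2 and perm-4 had the largest rises of the list, with perm-2 at 399.6 and 405 CPM at 1 day and 1029 and 1119.9 CPM at 5 days and perm-4 at 706 and 695 CPM at 1 day and 1711 and 1806 CPM at 5 days. Some counts moved by over 1.5 times without a single library: the oocyte list gave 9 rises and 1 fall without 1-day replicate 1. The eggshell list gave 9 rises and 2 falls without 1-day replicate 2, 10 rises and 2 falls without 5-day replicate 2.

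DNA replication and repair genes rose in 29 of 47 (background 30.1%) and fell in 6, by small amounts (median 0.19). With the length trend removed 26 rose and 3 fell. The clamp-loader gene rfc-2 stood at 66.1 and 62.1 CPM at 1 day and 117 and 110.0 CPM at 5 days, a log2 fold change of 0.82 (SE 0.07), and the mismatch repair gene mlh-1 had 0.73 (SE 0.06). The checkpoint kinase gene atl-1 fell (-0.62, SE 0.06, and -0.35 with the length trend removed). Meiosis and synapsis genes rose in 12 of 32 and fell in 5, with dsb-1 and dsb-2, needed for meiotic double-strand breaks, at 0.79 (SE 0.06) and 0.67 (SE 0.08). Counts here that depended on 1 library were as follows: the meiosis list gave 10 rises and 2 falls without 1-day replicate 1 or 5-day replicate 2, 11 rises and 1 fall without 1-day replicate 2. Transcription factors that set cell fate in embryos fell in 23 of 34 and rose in 3. Whether their reads came from embryos or from adult tissue was not tested. The foregut factor pha-4 stood at 32.6 and 32.7 CPM at 1 day and 8.09 and 10.3 CPM at 5 days and the muscle factor unc-120 at 23.8 and 21.6 CPM at 1 day and 6.17 and 6.05 CPM at 5 days, log2 fold changes of -1.83 (SE 0.11) and -1.89 (SE 0.13). The homeobox gene ceh-27 had -3.06 (SE 0.22). Splicing factors, which adult soma and germ line share, rose in 25 of 46 and fell in 6, with the U2AF small subunit gene uaf-2 at 0.69 (SE 0.06). For the called genes of this group the edgeR quasi-likelihood test gave adjusted p-values of at most 1.3e-07.

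**Figure D3:**
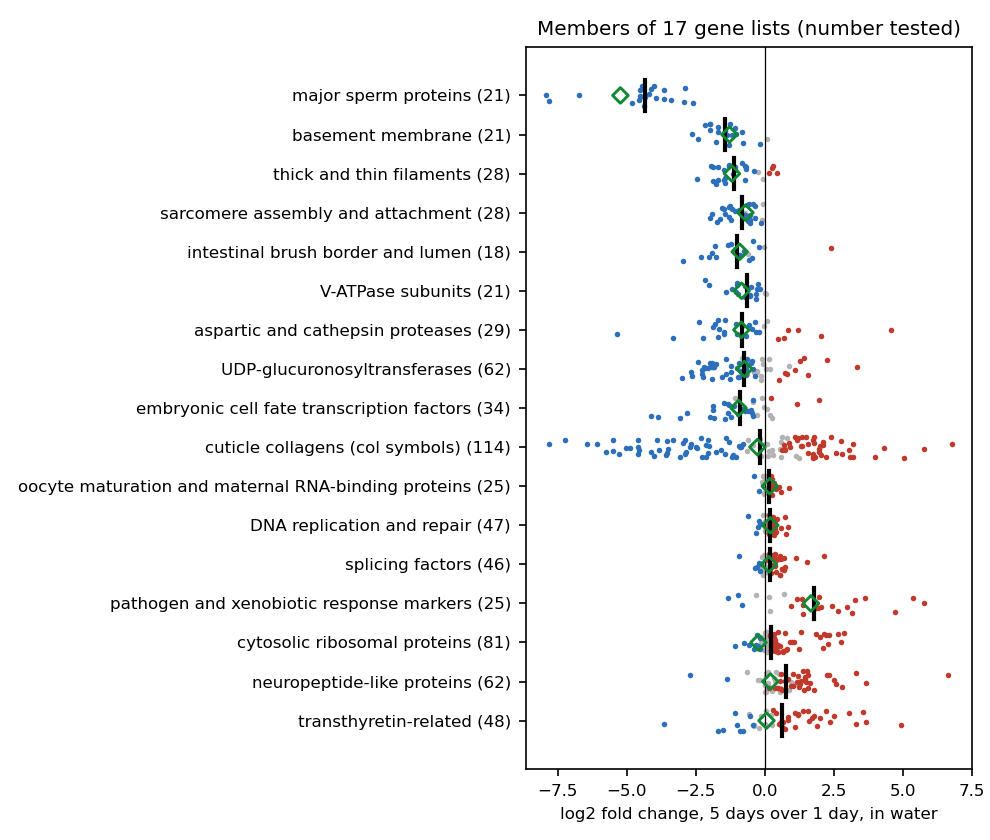
Each point is a member of 1 of 17 gene lists, placed by its log2 fold change at 5 days over 1 day in water and coloured red where it rose, blue where it fell and grey where it was not called. The 21 major sperm protein genes passed the filter through the 1-day libraries and had to differ, so their points are not support for a fall. Black bars are list medians and green diamonds the medians with the length trend removed, which for cytosolic ribosomal proteins moved from 0.23 to -0.23 and for the basement membrane from -1.44 to -1.28.

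Genes known as markers of infection and xenobiotic responses rose in 18 of 25 and fell in 3 (median 1.79), the highest median of any list with at least 20 genes tested. The secreted protein gene scl-2 (WBGene00009895, WBcel235 chromosome IV, 13057710 to 13059062) stood at 4.14 and 3.77 CPM at 1 day and 219.5 and 206 CPM at 5 days, a log2 fold change of 5.75 (SE 0.10). The CUB-domain gene dod-19 stood at 79.2 and 79.1 CPM at 1 day and 294 and 252 CPM at 5 days (1.79, SE 0.07). Lysozymes rose in 6 of 13 and fell in 4. The lysozyme lys-7 (WBGene00003096, WBcel235 chromosome V, 3481432 to 3482600) stood at 73.3 and 76.7 CPM at 1 day and 1331 and 1189 CPM at 5 days, the third largest gain of CPM of all genes, and the invertebrate-type lysozyme ilys-5 fell (-0.78, SE 0.06). The invertebrate lysozyme gene ilys-3 had 6 and 15 reads at 1 day and 262 and 266 reads at 5 days. Antimicrobial peptides and saposins rose in 26 of 51 and fell in 9, and with the length trend removed rose in 20 and fell in 16. The saposin-like genes spp-1 and spp-4 moved apart (2.72, SE 0.13 and -4.01, SE 0.22). In signalling, of 30 genes of the p38, TGF-beta and related pathways 8 rose and 9 fell, shares near those of all genes. All had log2 fold changes between -0.92 and 0.63. Adjusted p-values of the called genes reached at most 3.15e-10 in the edgeR quasi-likelihood test.

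Detoxification and stress genes had no common direction. UDP-glucuronosyltransferases fell in 38 of 62 and rose in 9, with ugt-22 at 179.5 and 184 CPM at 1 day and 43.7 and 37.3 CPM at 5 days. ABC transporters fell in 25 of 49 and rose in 7, and glutathione S-transferases fell in 17 of 39 and rose in 9 (20 and 3 with the length trend removed). Cytochrome P450 genes were split, 19 higher and 23 lower of 65 (29.2% and 35.4%), shares near those of all genes. The gene cyp-35A5, of a subfamily induced by xenobiotics, had -3.15 (SE 0.15). The ferritin gene ftn-1 had 20 and 12 reads at 1 day and 807 and 638 reads at 5 days (5.57, SE 0.26), whereas the cadmium-responsive gene cdr-1 fell (-3.34, SE 0.23). Cytosolic chaperones rose in 10 of 31 and fell in 7 (7 up and 14 down with the length trend removed), and genes of folding in the endoplasmic reticulum in 8 and 13 of 26. The small heat shock protein gene sip-1, which is expressed in the germ line and embryo, stood at 740.0 and 766 CPM at 1 day and 2101 and 2109 CPM at 5 days (1.48, SE 0.06). The superoxide dismutase genes sod-3, a reporter of DAF-16 activity, and sod-2 were not called, at -0.43 (SE 0.21) and 0.05 (SE 0.07), but were called lower with the length trend removed (-0.64 and -0.21). The gene sod-4 rose (1.31, SE 0.13). The gene sod-1 was called at 0.22 (SE 0.07), yet had -0.10 with the trend removed and was not called there or without 1-day replicate 1. With single libraries left out, counts moved by over 1.5 times as follows: the endoplasmic reticulum list gave 5 rises and 14 falls without 1-day replicate 1. Glutathione S-transferases gave 5 rises and 15 falls without 5-day replicate 1. The edgeR quasi-likelihood test gave each gene named as called here, over all libraries, an adjusted p of 0.00521 or less.

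Insulin signalling couples food and stress to growth and lifespan through the receptor DAF-2. Insulin-like peptide genes rose in 13 of 25 and fell in 2 (8 and 3 with the length trend removed). The gene ins-7, for an agonist of DAF-2, had 7 and 5 reads at 1 day and 131 and 84 reads at 5 days. Both 1-day values lay under the filter's minimum count of 10, so the rise of ins-7 is not given as support. How many members passed the filter through 1 age alone was not counted, so the calls of this list are not given as support either. Among 32 genes of insulin and TOR signalling and other regulators of lifespan, 9 rose and 8 fell, all within -1.23 and 0.96 on the log2 scale. The share of rises was near that of all genes and the share of falls under it. Against a fold of 1.5 this list kept 1 rise and 1 fall. With the length trend removed and no such fold, 14 rose and 6 fell. The receptor gene daf-2 stood at 277 and 246 CPM at 1 day and 304 and 342 CPM at 5 days. Its log2 fold change was 0.31 (SE 0.07), and 0.59 with the length trend removed. The kinase genes pdk-1 and akt-2 had 0.65 (SE 0.08) and 0.96 (SE 0.12). The transcription factor gene daf-16 stood at 144 and 136 CPM at 1 day and 156 and 151 CPM at 5 days and was not called, with an unadjusted 95% interval of 0.01 to 0.26; it was called higher with the length trend removed (0.24), with scaling to total counts (0.21), with a filter of 1 CPM in every library (0.15) and without 1-day replicate 1 (0.18). The heat shock factor gene hsf-1 stood at 128 and 128 CPM at 1 day and 125 and 132 CPM at 5 days, with an interval of -0.11 to 0.13. The TOR kinase gene let-363 fell by 0.39 and its TORC2 partner rict-1 rose by 0.57 on the log2 scale; with the length trend removed let-363 had -0.10 and was not called. Leaving out 1 library moved some counts by over 1.5 times: insulin-like peptides gave 9 rises and 1 fall without 1-day replicate 1, 10 rises and 1 fall without 5-day replicate 2. The insulin, TOR and lifespan list gave 9 rises and 5 falls without 1-day replicate 1. For the called genes of this group the edgeR quasi-likelihood test gave adjusted p-values of at most 0.000375.

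Neurons signal over distance by peptides cleaved from precursor proteins. Of 62 nlp genes 37 rose and 2 fell, and of 30 flp genes 14 and 1. These are short genes, and with the length trend removed 13 nlp genes rose and 7 fell, and 9 and 1 flp genes. The peptide gene flp-18 stood at 13.2 and 12.03 CPM at 1 day and 21.3 and 24.4 CPM at 5 days (0.86, SE 0.12; 0.69 with the trend removed). Genes of synaptic release and peptide processing gave 9 higher and 8 lower of 27 (33.3% and 29.6%), shares near those of all genes. The synaptobrevin gene snb-1 rose (1.14, SE 0.06), and the synaptic vesicle kinesin gene unc-104 fell (-0.61, SE 0.09). Touch receptor neuron genes fell in 10 of 17 and rose in 2, with 391 and 431 reads at 1 day and 223 and 199 reads at 5 days for the tubulin gene mec-7. The difference between these lists was not tested. In the sensory cilia list 12 of 36 fell and 5 rose (33.3% and 13.9%), a share of falls near the 30% of all genes. The intraflagellar transport gene osm-5 had -1.001 (SE 0.24). Some counts moved by over 1.5 times without a single library: the nlp genes gave 23 rises and 2 falls without 1-day replicate 1. The flp genes gave 12 rises and 0 falls without 1-day replicate 1 or 5-day replicate 2, 13 rises and 0 falls without arsenite 1-day replicate 1 or arsenite 1-day replicate 2, 18 rises and 0 falls without 5-day replicate 1. Synaptic and processing genes gave 6 rises and 5 falls without 1-day replicate 1 or 1-day replicate 2, 8 rises and 5 falls without 5-day replicate 1. The cilia list gave 3 rises and 7 falls without 1-day replicate 2, 3 rises and 9 falls without 5-day replicate 2, 4 rises and 5 falls without 5-day replicate 1, 4 rises and 7 falls without 1-day replicate 1.

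Making and clearing of protein showed no single direction. Among translation factors 13 rose and 3 fell of 32. The gene eif-1, which selects the start codon, had 0.67 (SE 0.07) and the eIF3 subunit gene eif-3.C -0.48 (SE 0.06). With the length trend removed eif-1 had 0.19 and eif-3.C -0.41. Among genes of the nucleolus and ribosome biogenesis 2 rose and 11 fell of 26, and the box C/D snoRNP gene nol-56 stood at 388 and 424 CPM at 1 day and 276 and 278 CPM at 5 days. Among aminoacyl-tRNA synthetases 4 rose and 12 fell of 31. Proteasome genes gave a split that turned with gene length: 11 rose and 7 fell of 33, and 6 rose and 12 fell with the length trend removed. The same held for ubiquitin conjugation and SCF genes, of which 24 rose and 9 fell of 53, and 14 rose and 16 fell with the length trend removed. The deubiquitinase gene rpn-11, of the proteasome lid, stood at 159.9 and 171 CPM at 1 day and 242 and 249 CPM at 5 days (0.57, SE 0.06). The ubiquitin chain elongation factor gene ufd-2 stood at 337 and 359.6 CPM at 1 day and 205 and 197 CPM at 5 days (-0.80, SE 0.06). Counts here that depended on 1 library were as follows: translation factors gave 8 rises and 3 falls without 5-day replicate 2. The nucleolus list gave 1 rise and 10 falls without 5-day replicate 1, 1 rise and 11 falls without 1-day replicate 2, 2 rises and 7 falls without 1-day replicate 1. The proteasome gave 7 rises and 7 falls without 1-day replicate 1, 11 rises and 3 falls without 5-day replicate 2, 12 rises and 3 falls without 1-day replicate 2. Adjusted p-values of the called genes reached at most 2.77e-07 in the edgeR quasi-likelihood test.

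Among genes with a his symbol listed as replication-dependent histones 11 rose and 2 fell of 24, and 4 rose and 9 fell with the length trend removed. These genes are short and many are near-identical copies, so single values are uncertain. Among histone variants and linker histones 8 rose and 3 fell of 16 (5 up and 5 down with the length trend removed); the linker histone gene hil-1 had 63 and 91 reads at 1 day and 503 and 443 reads at 5 days (2.71, SE 0.16) and the centromeric histone gene hcp-3 had 0.71 (SE 0.06). Among chromatin regulators 12 rose and 14 fell of 39 (30.8% and 35.9%), shares near those of all genes, and 13 rose and 9 fell with the length trend removed. The heterochromatin protein gene hpl-2 had 0.69 (SE 0.06) and the demethylase gene jmjd-3.1 -1.02 (SE 0.09). Of the dosage compensation complex, which lowers X expression in hermaphrodites, 3 rose and 5 fell of 10 (4 up and 3 down with the length trend removed). Its recruiter gene sdc-2 stood at 68.9 and 63.7 CPM at 1 day and 40.4 and 46.1 CPM at 5 days (-0.62, SE 0.08). With the length trend removed sdc-2 had -0.3. Of nuclear hormone receptors 39 rose and 43 fell of 183 (21.3% and 23.5%), shares under those of all genes. Among them nhr-68, a regulator of the propionate shunt, had -1.22 (SE 0.08). With single libraries left out, counts moved by over 1.5 times as follows: the his genes gave 8 rises and 1 fall without 1-day replicate 2, 9 rises and 1 fall without 5-day replicate 1 or 5-day replicate 2. Nuclear hormone receptors gave 20 rises and 35 falls without 1-day replicate 2, 29 rises and 28 falls without 1-day replicate 1.

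Of the transthyretin-related genes 29 of 48 rose and 9 fell, and 19 rose and 13 fell with the length trend removed. Astacin metalloproteases gave 12 higher and 7 lower of 29. Of C-type lectins 41 rose and 33 fell of 109 (37.6% and 30.3%, against 30.1% and 30% of all genes). Among them clec-62 stood at 24.4 and 26.2 CPM at 1 day and 62.3 and 64.02 CPM at 5 days (1.32, SE 0.08). Of pharyngeal genes 4 rose and 10 fell of 22, and of genes of the gonadal sheath and spermatheca 3 rose and 10 fell of 15. In the latter list the sheath gap junction genes inx-8 and inx-9 rose (0.42, SE 0.07 and 0.85, SE 0.11). The inositol trisphosphate receptor gene itr-1, which drives ovulation, fell (-0.48, SE 0.06, and -0.16 with the length trend removed). Leaving out 1 library moved some counts by over 1.5 times: the gonadal sheath list gave 3 rises and 6 falls without 1-day replicate 2 or 5-day replicate 1.

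Among the other genes of large change, F45D3.4 stood at 6.47 and 6.39 CPM at 1 day and 225 and 207 CPM at 5 days and rose by 5.07 on the log2 scale. The gene sysm-1 had 16 and 20 reads at 1 day and 869 and 544 reads at 5 days, and the short-chain dehydrogenase gene dhs-26 had 6 and 17 reads at 1 day and 932 and 440 reads at 5 days. The 5-day libraries differed widely from each other for dhs-26, and its log2 fold change was 5.97 (SE 0.80), with an adjusted p of 0.00323 in the edgeR quasi-likelihood test. On the falling side the aspartic protease asp-12 stood at 433 and 519 CPM at 1 day and 11.2 and 12.1 CPM at 5 days (-5.36, SE 0.12). The C-type lectin clec-70 had 343 and 426 reads at 1 day and 3 and 16 reads at 5 days. By CPM gained, the genes behind vit-5 and sip-1 included ule-1, which rose from a mean of 113 to 1057 CPM, and lea-1, which is related to plant late embryogenesis proteins and rose from a mean of 262 to 836 CPM. The galectin gene lec-2 rose from a mean of 276 to 786 CPM. By CPM lost, the adenosylhomocysteinase gene ahcy-1 fell from a mean of 1706 to 940.4 CPM and the protease gene asp-1 from a mean of 2293 to 649 CPM.

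**Figure D4:**
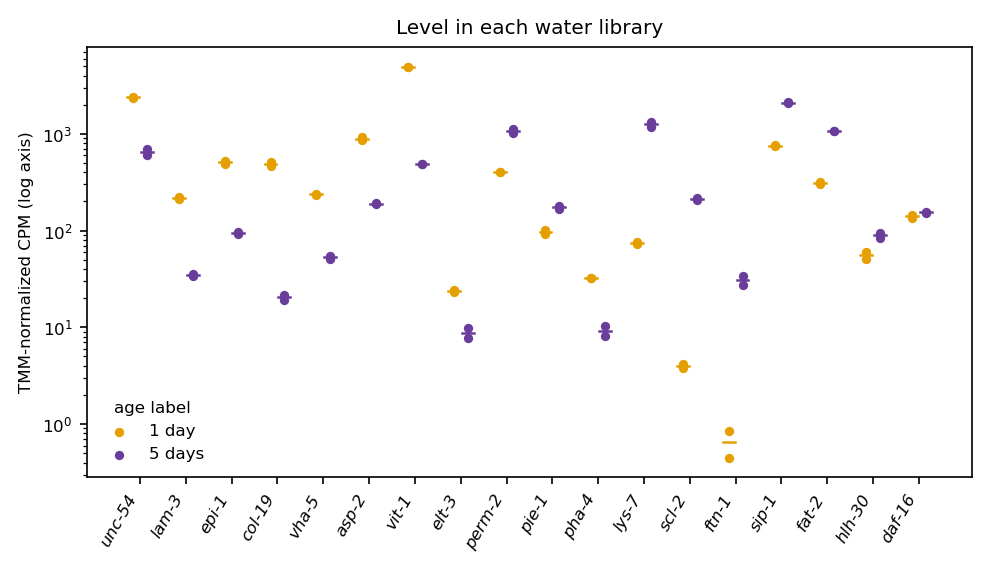
The level of 18 genes in each of the 4 water libraries in TMM-normalized CPM on a logarithmic axis, 1 point per library, with a bar at the mean of each age. Both 5-day libraries lie clear of both 1-day libraries for every gene drawn, but the gap is narrow for daf-16, which, at 139.8 and 154 CPM on average, was not called. The libraries of both ages did not overlap for 79.0% of all genes tested, so this separation by itself says little of the genes drawn.

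On the X chromosome 37.2% of 2096 genes tested fell and 21.6% rose, with a median log2 fold change of -0.16. On the 5 autosomes 26.1% to 30.4% fell and 29.2% to 33.3% rose, with medians of 0.01 to 0.06. With the length trend removed the X values were 39.1% and 18.6%, and those of autosomes 29.5% to 33.1% and 25.2% to 28.8%. Some classes of germline genes are known to be rare on X in this species, and their part in the X values was not tested. These shares are a description over genes, which are not independent. Of 138 gene families defined by a shared symbol with at least 10 genes tested, 5 had at least 70% of members called lower: the major sperm proteins, for which the filter fixed the direction, the aspartic proteases, the V-ATPase subunits, the aquaporins (7 of 10) and the peroxins, which build peroxisomes (8 of 11). In 2 families at least 70% rose: the ubiquitin-conjugating enzymes (14 of 19) and the RNA polymerase II subunits (8 of 11). With the length trend removed 7 ubiquitin-conjugating enzymes rose and 2 fell, and 2 polymerase subunits rose and 3 fell. Without 5-day replicate 1, 1 polymerase subunit fell.

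The age contrast was repeated in the arsenite arm, whose 4 libraries are separate from the water libraries but carry the same separation of library numbers by age. There 59.6% of genes were called, 30.3% higher and 29.4% lower. Of the genes called in water 87.1% were called the same way in arsenite, and of those called in arsenite 87.8% were called the same way in water. Both contrasts came from 1 fit that shared its filter, scaling and estimate of spread, so these calls are not fully independent. Of the 8685 genes called in water, 8629 had the same sign in arsenite. The test of whether the age effect differed between water and arsenite called 0 genes (0.0% of those tested; edgeR quasi-likelihood test, smallest adjusted p = 0.5949), and 368 genes had an unadjusted p under 0.05 for it; DESeq2 and limma voom also called 0. Thus no age change described above was shown to be particular to water. The gene lam-3 had -2.65 in water and -2.73 in arsenite, lys-7 4.07 and 4.06, and vit-1 -3.36 and -3.14 on the log2 scale.

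**Figure D5:**
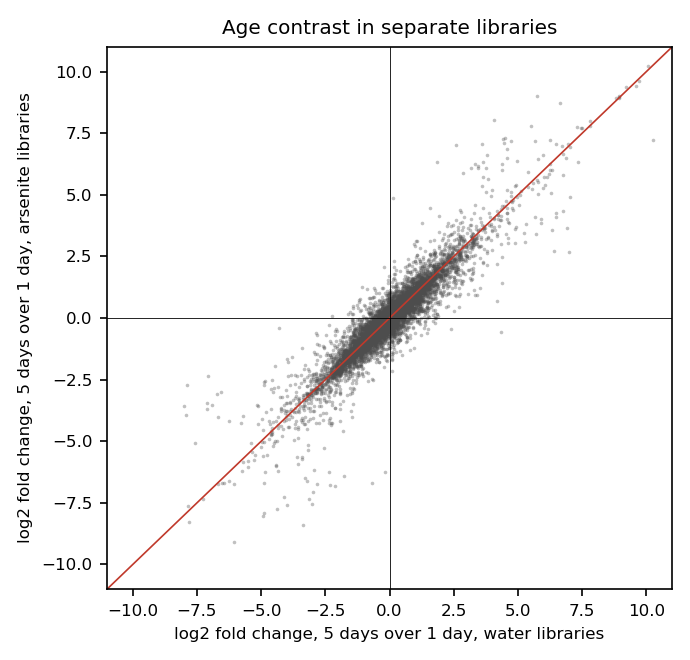
Each point is 1 of 14449 genes, with its log2 fold change at 5 days over 1 day in the water libraries against that in the arsenite libraries, and the red line marks equal values. Of the 8685 genes called in water, 8629 lie on the same side of 0 in both.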

How the data were processed

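Messenger RNA of whole N2 hermaphrodites was made into libraries with an Illumina kit for messenger RNA, per the labels' protocols. The counts per gene were deposited by the authors; the submitters' processing notes name CASAVA 1.7, STAR 2.4.1d, featureCounts 1.4.6-p4 and build WBcel235, with no further detail. The annotation release, strand setting and handling of multi-mapping reads were not given in the sources used here, so overlapping and duplicated genes are uncertain. A table of RPKM values was not used.

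Counts were analysed as deposited with edgeR 4.0.16 (R 4.3.3). Genes passing filterByExpr (minimum count 10, minimum total 15) were kept, libraries were scaled by TMM, and a quasi-likelihood model was fitted with 1 term per group of ages and exposure over all 8 libraries (4 residual degrees of freedom). Benjamini-Hochberg adjustment ran over 14449 genes, with a threshold of 0.05. CPM are counts scaled by TMM-adjusted library size. Alternatives used DESeq2 1.42.0, limma 3.58.1 voom, other scalings and filters, a test against a fold of 1.5, libraries left out in turn and, chosen after seeing the data, removal of the length trend. The procedure was run on counts simulated with the spread fitted to these data, with known changes and with an imposed length trend. That run checked the code and cannot show the error rate in the real libraries. The 46748 identifiers were named from the supplied names table (43693 matched) and placed with the WBcel235 annotation (46449 matched).

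The groups and gene lists were chosen with earlier results of these data known, so counts over lists are descriptions. Genes named above are a selection, mostly from a set fixed by rule, and that set is not printed in full. The set held the 20 largest rises and falls, the 12 largest gains and losses of CPM and, per list, the 4 or fewer members of lowest p. It also held all members of short lists and of the longevity and intestinal factor lists. Total counts were 21598326 to 27317490 per library. Intervals on summed reads cover counting error only.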

Additional observations from a re-analysis of the deposited data

How the results depend on the processing

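Against a fold of 1.5 instead of 0, edgeR called 3363 genes in water (1557 higher and 1806 lower) and 3436 in arsenite. The difference between the arms had 0 genes, and 1 gene with no filter. Leaving out 1 library at a time, the count ranged from 7319 to 8760 in water (3658 to 4359 higher, 3657 to 4401 lower), from 7115 to 8862 in arsenite and from 0 to 1 for the difference, the single gene appearing without 1-day water replicate 2. DESeq2 called 7414 genes and limma voom 8615. Scaling to total counts moved the median log2 fold change of all genes from 0.008 to 0.085 and the higher share of calls from 50.1% to 57.4%. Among genes named, hsf-1 had -0.01 with upper-quartile scaling and ranged from -0.03 to 0.04 with libraries left out, and with the length trend removed sod-1 had -0.10 and sod-2 -0.21. The cause was not tested. With 2 libraries a side, each left-out fit assumes that the lone library varies like the other groups. Outliers within groups of 2 could not be tested. No paired analysis was possible because the labels give the libraries no replicate numbers of their own, and replicates were numbered in accession order.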

Other observations

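Of the genes called in both arms, 2 were called in opposite directions, F53H2.4 at -0.64 in water and 0.51 in arsenite and WBGene00014294 at -0.35 and 0.36 on the log2 scale. The difference between arms did not pass for either (edgeR quasi-likelihood test, adjusted p = 0.9999 and 0.5949).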
